A study of Mus musculus with 24 samples.

Results

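The genes described here are 6 that mark the muscle cells of the cardiac atria in the mouse, namely Myl4, Myl7, Sln, Dkk3, Mybphl and Bmp10. They were chosen by name among the 24239 genes of the normalized count table, and each symbol stood for a single gene there. No rule on measured values was used, but earlier results of these data were known when the genes were chosen. They were followed heart by heart in 24 libraries, 6 from each of 4 groups of mice. The groups were cSirt5-/- TAC, cSirt5-/- Sham, control TAC and control Sham, where TAC is transverse aortic constriction, a clip on the aortic arch that loads the left ventricle with pressure, and Sham is the same operation without the clip. All mice were male, and hearts were taken 12 weeks after surgery and sequenced as whole heart tissue. In cSirt5-/- mice the sirtuin gene Sirt5, on a C57BL6J background, was deleted by a Cre recombinase under the Myh6 promoter, which acts in cardiomyocytes of atria and ventricles and leaves Sirt5 in the other cells of the heart. Controls carried the transgenic line without the recombinase, so the deletion and the presence of Cre cannot be told apart, and age is not given in the sources used here.

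Atrial and ventricular cardiomyocytes use different versions of several contractile proteins. Myosin in the atria carries the essential light chain Myl4 and the regulatory light chain Myl7 in place of the ventricular Myl3 and Myl2, and the calcium pump SERCA is restrained there by sarcolipin, the product of Sln, where the ventricle relies on phospholamban, the product of Pln. Mybphl encodes a protein related to myosin-binding protein C, Dkk3 a secreted glycoprotein of the Dickkopf family, and Bmp10 a secreted ligand of the TGF-beta family made mainly by right atrial muscle in the adult. Because these transcripts come largely from a small region of the organ, their level in bulk RNA of a whole heart depends on how much atrial tissue was in the sample as well as on how much RNA each atrial cell held, and fewer cells and less RNA per cell cannot be told apart in these data.

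In GRCm39, Myl4 (ENSMUSG00000061086) lies on the plus strand at chr11:104441489-104486579 and Myl7 (ENSMUSG00000020469) on the minus strand at chr11:5846637-5848782. Sln (ENSMUSG00000042045) is on the plus strand at chr9:53757448-53761844, and Dkk3 (ENSMUSG00000030772) on the minus strand at chr7:111715224-111758264. Mybphl (ENSMUSG00000068745) is on the plus strand at chr3:108272227-108287373, and Bmp10 (ENSMUSG00000030046) on the plus strand at chr6:87405976-87414659. Genes annotated on the opposite strand overlap Myl4 and Mybphl, but their mean normalized counts were 2.76 (Gm11665), 7.49 (Gm22000) and 1.10 (Gm12522).

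Promoter sequences of 300 bases, 250 before and 50 after the start of transcription, were found in RefSeq on build GRCm38.p6 for 4 of the 6 genes, Myl4, Myl7, Mybphl and Bmp10. The promoters of Myl7, Mybphl and Bmp10 are printed because in the hearts described below Mybphl was high in most hearts with much Myl7 and Bmp10 was high in a single one. They are the regions chr11:5898733-5899032 (Myl7, minus strand), chr3:108364661-108364960 (Mybphl, plus strand) and chr6:87428744-87429043 (Bmp10, plus strand). Each is written in the direction of transcription, and capitals mark matches to motifs of cardiac transcription factors on either strand.
Myl7: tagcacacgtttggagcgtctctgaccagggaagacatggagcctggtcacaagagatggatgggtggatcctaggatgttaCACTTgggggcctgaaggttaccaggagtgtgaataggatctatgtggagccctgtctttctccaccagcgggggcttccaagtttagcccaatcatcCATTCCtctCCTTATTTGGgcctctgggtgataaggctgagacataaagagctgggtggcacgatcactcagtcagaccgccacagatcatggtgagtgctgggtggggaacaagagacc
Mybphl: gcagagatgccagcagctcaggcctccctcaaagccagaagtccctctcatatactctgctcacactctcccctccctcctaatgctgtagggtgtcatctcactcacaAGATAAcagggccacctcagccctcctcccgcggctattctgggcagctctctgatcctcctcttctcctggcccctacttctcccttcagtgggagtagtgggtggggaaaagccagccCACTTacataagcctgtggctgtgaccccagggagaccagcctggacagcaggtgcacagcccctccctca
Bmp10: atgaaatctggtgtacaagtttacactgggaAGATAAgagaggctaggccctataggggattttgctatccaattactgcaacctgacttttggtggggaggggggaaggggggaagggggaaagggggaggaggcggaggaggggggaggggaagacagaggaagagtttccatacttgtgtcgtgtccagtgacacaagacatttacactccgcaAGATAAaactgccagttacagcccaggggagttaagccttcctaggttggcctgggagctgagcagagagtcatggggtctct

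The GATA motif AGATAA was in the promoter of Bmp10, 219 and 33 bases before the start, and in that of Mybphl, 141 bases before it, against 11.2% of all 32851 promoters. The Myl7 promoter held a CArG box, the motif of serum response factor, 61 bases before the start, against 1.63% of all promoters, and beside it the TEAD motif GGAATG on the minus strand, 70 bases before the start, against 14.7%. The short NK2 motif AAGTG was in the promoters of Myl4, Myl7 and Mybphl, against 46.4% of all promoters, and none of its matches overlapped another motif. No match was found in the 4 promoters for the T-box motif AGGTGT, the NR2F motif AGGTCA, the MEF2 site or the TATA box TATAAA, which were in 13.7%, 16.3%, 1.86% and 13.6% of all promoters. These matches describe the letters only, and binding was not measured.

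Sequencing depth was 22523629 to 35834826 reads per library, and no pair of libraries of the same group agreed within sampling noise. Pairs across groups were not compared in this way. Sirt5 was measured first as a check of the labels, and stood at 95.8 to 886 normalized counts in cSirt5-/- TAC hearts, 85.6 to 259 in cSirt5-/- Sham hearts, 565 to 796 in control TAC hearts and 388 to 807 in control Sham hearts. The library labelled cSirt5-/- TAC replicate 2, at 886, and the library labelled cSirt5-/- TAC replicate 4, at 499, were in or above the control range (called below the libraries that kept Sirt5). Without both, limma called 282 genes between cSirt5-/- TAC and control TAC hearts, against 787 with them. The log2 differences of the 6 genes that involve cSirt5-/- TAC hearts, the calls of other named genes there, the spread within groups and the correlations are therefore also given without both. Transcripts of thymus (Rag1) stood at 46.9 normalized counts in cSirt5-/- Sham replicate 3, and those of lung (Sftpc) at 173 in cSirt5-/- Sham replicate 5. The antisense reads over strongly expressed genes split the libraries into a set of 10 and a set of 14, for which the labels give no reason. The numbers that name each animal cluster in 3 ranges, here called the low, middle and high number series, and the cSirt5-/- Sham hearts came only from the middle and high ones.

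Whether atrial muscle was present in a heart sample was read first from Myl7, since this light chain is made by atrial and not by adult ventricular muscle. Myl7 reached 1141 and 149.9 normalized counts in the libraries labelled cSirt5-/- TAC replicates 4 and 5, and 0 to 3.27 in the other 4. In cSirt5-/- Sham hearts it was 5554, 4146, 692 and 652 in replicates 3, 4, 6 and 2, against 16.8 and 3.38 in replicates 1 and 5. Myl7 was therefore plentiful in some hearts of a group and nearly missing in others that carried the same label.

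In control TAC hearts, Myl7 was 118 in replicate 5, 11.8 in replicate 4 and 0 to 1.83 in the rest. In control Sham hearts it was 629 in replicate 2, 86.3 and 65.5 in replicates 6 and 3, and 0 to 1.97 in the other 3. Of the 24 whole-heart samples, 8 held at least 100 reads of Myl7 (2 cSirt5-/- TAC, 4 cSirt5-/- Sham, 1 control TAC and 1 control Sham), 12 held under 10 reads (4, 1, 4 and 3 in the same order), and 6 held none (1, 0, 3 and 2). A count of 0 at this depth allows up to 3 reads, counting error only, so in those 6 samples atrial muscle was not detectable by this gene although the label says whole heart. Myl4 never fell below 17.0 normalized counts in any heart.

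The hearts with Myl7 were not spread evenly over the animals and libraries. At least 100 reads of Myl7 were found in 0 of 10 hearts of the low number series, 4 of 8 of the middle series and 4 of 6 of the high series. By antisense level, they were 6 of the set of 10 libraries and 2 of the set of 14. Since no cSirt5-/- Sham heart and 4 of 6 control Sham hearts came from the low series, genotype and animal series are largely tied in the Sham comparison.

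**Figure D1:**
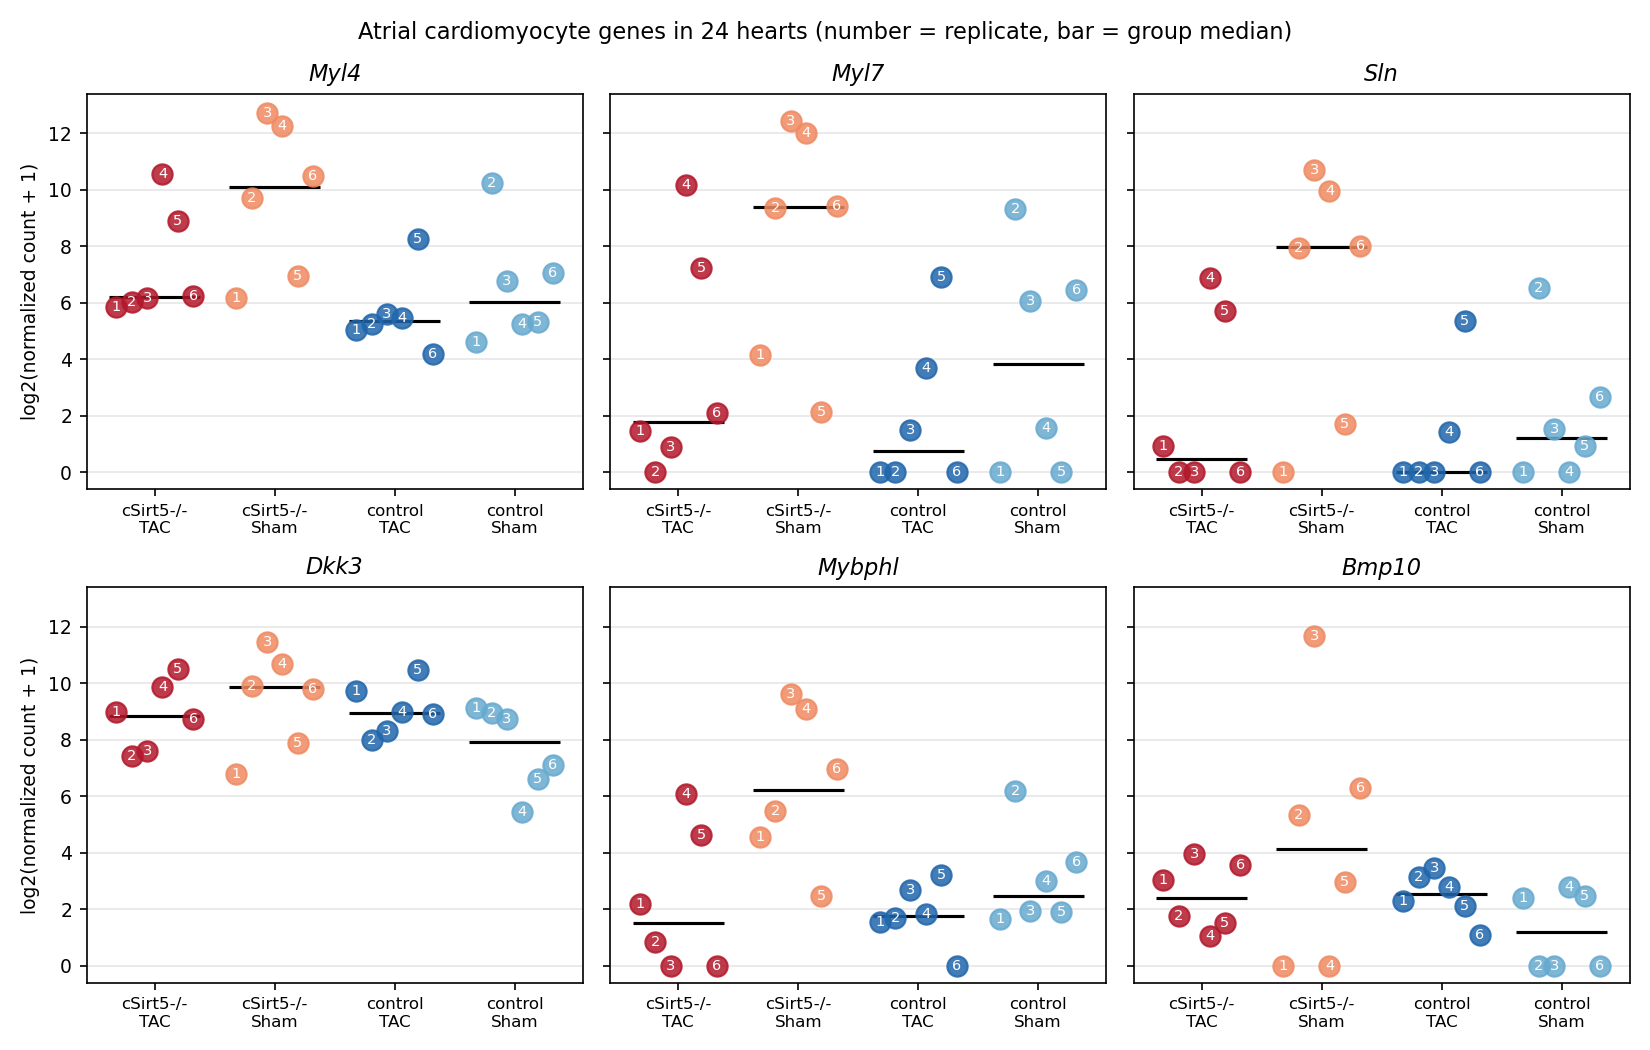
Levels of the 6 atrial cardiomyocyte genes in every heart, as log2(normalized count + 1), 1 panel per gene, with cSirt5-/- TAC, cSirt5-/- Sham, control TAC and control Sham hearts from left to right. Points are hearts numbered by replicate and bars are group medians; cSirt5-/- Sham replicates 3 and 4 stand high for Myl4, Myl7, Sln, Dkk3 and Mybphl, and Bmp10 stands high only in replicate 3 at 3257 normalized counts.

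The other light chain, Myl4, spanned the lowest, median and highest values of 57.1, 72.4 and 1500.5 normalized counts in cSirt5-/- TAC hearts, 71.6, 1133 and 6757 in cSirt5-/- Sham hearts, 17.0, 40.1 and 306 in control TAC hearts, and 23.5, 73.0 and 1192 in control Sham hearts. Its high hearts were those with high Myl7, led by cSirt5-/- Sham replicates 3 and 4, and all 4 groups overlapped. Per kilobase of exon, taken as the union of all annotated exons of a gene, Myl4 was divided by the ventricular light chain Myl3 in each heart. The median of these percentages was 0.350% in cSirt5-/- Sham hearts and 0.0243% in control Sham hearts. For Myl7 against its ventricular counterpart Myl2, the median percentage was 0.595% in cSirt5-/- Sham hearts and 0.0316% in control Sham hearts. The highest value was 6.11%, in cSirt5-/- Sham replicate 3.

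Sln, whose product slows the SERCA pump, was at 0 in 10 of 24 hearts, more often than either light chain. Its lowest, median and highest values were 0, 0.446 and 116.1 normalized counts in cSirt5-/- TAC hearts, 0, 251 and 1666 in cSirt5-/- Sham hearts, 0, 0 and 39.6 in control TAC hearts, and 0, 1.40 and 89.8 in control Sham hearts. The 6 hearts with the most Sln, at 89.8 or more, were the library labelled cSirt5-/- TAC replicate 4, cSirt5-/- Sham replicates 2, 3, 4 and 6, and control Sham replicate 2, and they were also the 6 with the most Myl7, at 629 or more. Against Pln, its ventricular counterpart, the per-kilobase level of Sln was at most 4.58% in cSirt5-/- Sham hearts and 0.207% in control Sham hearts.

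Mybphl, the relative of myosin-binding protein C, was at 0 in 3 hearts. It spanned 0, 2.18 and 66.5 normalized counts (lowest, median, highest) in cSirt5-/- TAC hearts, 4.50, 82.9 and 774 in cSirt5-/- Sham hearts, 0, 2.39 and 8.25 in control TAC hearts, and 2.14, 4.88 and 70.9 in control Sham hearts. Only cSirt5-/- Sham replicates 3, 4 and 6, at 774, 536 and 123, exceeded every control Sham heart.

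The genes of secreted proteins were read next. Dkk3 was at 169, 463 and 1440 normalized counts (lowest, median, highest) in cSirt5-/- TAC hearts, 108, 929.6 and 2810 in cSirt5-/- Sham hearts, 254, 493 and 1424 in control TAC hearts, and 42.4, 282 and 555 in control Sham hearts. It was present in all hearts, including those with no Myl7, and in the 12 hearts with under 10 reads of Myl7 it ran between 42.4 and 849, highest in control TAC replicate 1. Dkk3 was thus measured in hearts where Myl7 was not detectable. The same held for the muscle gene Myl4, which ran between 17.0 and 123 in the same 12 hearts.

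Bmp10 was at 1.06, 4.76 and 14.7 normalized counts (lowest, median, highest) in cSirt5-/- TAC hearts, 0, 23.2 and 3257 in cSirt5-/- Sham hearts, 1.13, 4.88 and 10.1 in control TAC hearts, and 0, 2.14 and 5.92 in control Sham hearts. A single heart, cSirt5-/- Sham replicate 3, held 3257, and the next were cSirt5-/- Sham replicates 6 and 2 at 76.9 and 39.6. In cSirt5-/- Sham replicate 4, where Myl7 was 4146, Bmp10 was 0, and in control Sham replicate 2, where Myl7 was 629, it was also 0. The 4 groups overlapped for each of the 6 genes.

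How closely the genes moved together was read in the 8 hearts with at least 100 reads of Myl7, where the level of Myl7 itself spanned 47.1-fold, between 118 and 5554 normalized counts. For every 100 reads of Myl7, these hearts held 117 to 319 of Myl4 (a 2.73-fold range), 5.83 to 17.7 of Mybphl (3.04-fold) and 10.2 to 37.5 of Sln (3.69-fold). The proportions among the 4 muscle genes thus varied much less between these hearts than the amount of Myl7 did. For Dkk3 the range was 39.2 to 1207 (30.8-fold), and for Bmp10 it was 0 to 58.6. These ranges depend on the cut of 100 reads. Under it, control Sham replicates 3 and 6 held 69 and 80 reads of Myl7, with 113 and 122 of Myl4, 3 and 11 of Mybphl and 2 and 5 of Sln. The proportion of Sln there was below the range of the 8 hearts.

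**Figure D2:**
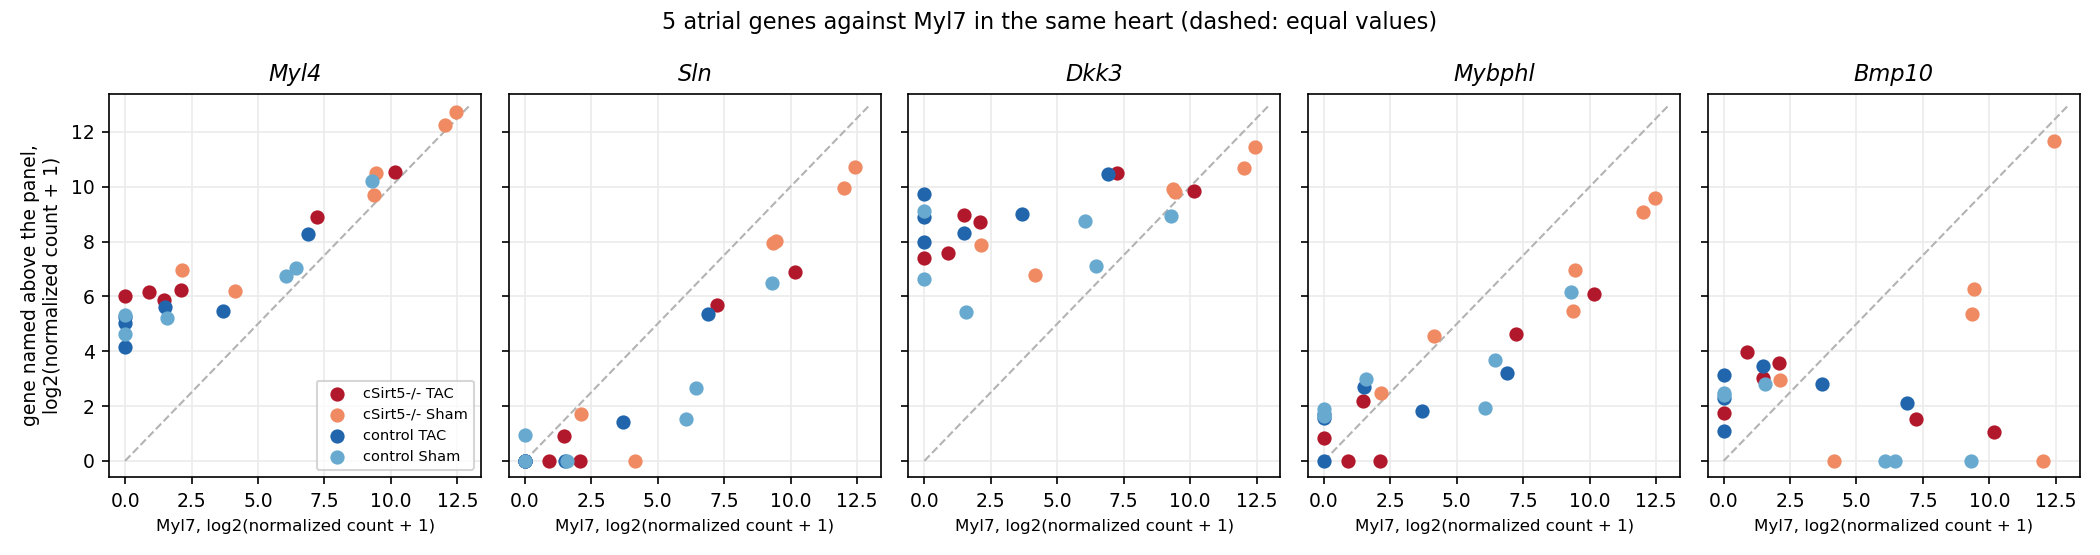
Levels of Myl4, Sln, Dkk3, Mybphl and Bmp10 (vertical axis) against Myl7 (horizontal axis) in each of the 24 hearts, both as log2(normalized count + 1), coloured by group, with a dashed line at equal values. Myl4, Sln and Mybphl climb with Myl7 in the hearts where Myl7 is above 100, Dkk3 is present at up to 849 normalized counts where Myl7 is absent, and Bmp10 is high in a single heart at 3257.

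With group means removed, the SD between hearts of a group was 3.79 for Myl7, 3.18 for Sln, 2.44 for Bmp10, 2.13 for Mybphl, 2.07 for Myl4 and 1.38 for Dkk3 on the log2 scale. Genes within 2-fold of the same mean expression had median SDs of 0.199, 0.299, 0.300, 0.397, 0.190 and 0.193 in that order, and at least 99.8% of them varied less than the atrial gene. Without both libraries that kept Sirt5 the SDs of the atrial genes were 3.57, 3.11, 2.53, 2.01, 2.01 and 1.40 in the same order.

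Over the 15 pairs of these genes, the SD of the log2 difference ran between 0.927 for Myl4 and Mybphl, smaller than that of either gene, and 4.49 for Myl7 and Bmp10, larger than that of either. It was 1.29 for Myl4 and Sln, 1.46 for Myl7 and Sln and 1.66 for Sln and Mybphl, each smaller than the SD of both genes. For Myl4 and Myl7 it was 1.95, little below the 2.07 of Myl4 alone, and for Myl7 and Mybphl it was 2.21, above the 2.13 of Mybphl alone.

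Each gene was also set against the mean log2 level of the 6, group means removed, as a description over 24 hearts, in which all genes of a heart share its tissue sample, library and depth. Pearson's r was 0.97 for Sln, 0.97 for Myl4, 0.93 for Myl7, 0.90 for Mybphl, 0.80 for Dkk3 and 0.30 for Bmp10, each a part of the mean it was compared with. Without cSirt5-/- Sham replicates 3 and 4, the hearts farthest from the median, the values over 22 hearts were 0.98, 0.97, 0.94, 0.89, 0.76 and 0.13 in that order. The group means removed there were still those of all 24 hearts. Among 12167 genes with a mean of at least 50, r lay between -0.39 and 0.38 for the middle 90 percent of genes, and the ventricular Myl2, Myl3 and Pln were at -0.16, -0.15 and -0.27. Without both libraries that kept Sirt5, and with group means taken again, the 6 genes were at 0.97, 0.96, 0.92, 0.89, 0.80 and 0.37. Myl2, Myl3 and Pln were then at -0.53, -0.43 and -0.23.

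The first comparison asked what deletion of Sirt5 did in unloaded hearts. In cSirt5-/- Sham hearts against control Sham hearts, the difference in mean log2 level was 3.18 for Myl4 (SE 1.01, limma adjusted p = 0.103), 4.36 for Myl7 (SE 1.86, adjusted p = 0.236), 4.45 for Sln (SE 1.58, adjusted p = 0.147) and 3.29 for Mybphl (SE 1.07, adjusted p = 0.110). For the secreted genes it was 1.75 for Dkk3 (SE 0.68, limma adjusted p = 0.186) and 3.10 for Bmp10 (SE 1.22, adjusted p = 0.196). A gene was called when the adjusted p was below 0.1 and the change above 1.5-fold, and 0 of the 6 were called, where 2.03% of all 24239 genes were. At an unadjusted p below 0.05, limma had 6 of 6, beside 16.1% of all genes. The median of the 6 log2 differences was 3.24, beside 0.02 over all genes.

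Heart by heart, 4 cSirt5-/- Sham hearts lay above every control Sham heart for Myl7, Sln, Dkk3 and Bmp10 and 3 for Myl4 and Mybphl, and none of the 6 separated the groups, as 2.45% of all genes did. These differences rested on few hearts. Without cSirt5-/- Sham replicate 3 the log2 difference of Bmp10 was 1.64 (limma adjusted p = 0.401) and that of Mybphl 2.64 (adjusted p = 0.226). Without cSirt5-/- Sham replicate 1, which had little of any of the 6, limma called 5 of 6, all but Myl7, where it called 2.29% of all genes, with Myl4 at 3.89 (adjusted p = 0.0450).

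The call also depended on the model. On whole reads, edgeR called Sln (5.11 on the log2 scale, adjusted p = 0.0421), Mybphl (4.00, adjusted p = 0.0398) and Bmp10 (7.72, adjusted p = 0.00685), where it called 2.1% of all genes, and gave 6 of 6 an unadjusted p below 0.05, beside 17.4% of all genes. DESeq2 called Myl4 (3.20, adjusted p = 0.0463), Dkk3 (1.93, adjusted p = 0.0712) and Mybphl (3.95, adjusted p = 0.0309), gave no p for Bmp10, had 4 of the other 5 below an unadjusted 0.05, beside 15.6% of all genes, and called 4.17% of the genes it tested. Only Mybphl was called by both. Without both libraries labelled cSirt5-/- TAC that kept Sirt5, which enter the shared estimate of the spread, limma called Myl4 (adjusted p = 0.0654) and Mybphl (adjusted p = 0.0656), where it called 2.62% of all genes.

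With the 3 series of animal numbers in the limma model, the log2 differences became 1.67 for Myl4, 2.17 for Myl7, 1.93 for Sln, 0.55 for Dkk3, 2.57 for Mybphl and 2.94 for Bmp10, with adjusted p values between 0.642 and 0.886. The only series with both Sham groups was the middle one, where Myl7 was 16.8 and 652 in cSirt5-/- Sham replicates 1 and 2, against 0 and 629 in control Sham replicates 1 and 2. There each genotype had 1 heart with much Myl7 and 1 with little. Within the libraries of high antisense level the log2 differences were 4.84 for Myl7 and 3.05 for Bmp10, and within those of low antisense level 2.26 and 3.31, the last with a limma adjusted p of 0.0935 and called, as were 6.83% of all genes in those libraries. The low set held only 2 cSirt5-/- Sham hearts, with Bmp10 at 6.76 and 76.9 normalized counts, and 4 control Sham hearts, at 0 to 5.92.

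Myl7 was then entered in the model as a covariate, so that hearts were compared at equal levels of it. The cSirt5-/- Sham minus control Sham difference of Myl4 was then 0.93 (SE 0.38, limma adjusted p = 0.362), that of Sln 1.05 (adjusted p = 0.641), that of Dkk3 0.61 (adjusted p = 0.734), that of Mybphl 1.17 (adjusted p = 0.534) and that of Bmp10 3.08 (SE 1.36, adjusted p = 0.413). Among the 24238 other genes, 0.408% were called with this covariate. The differences of Myl4, Sln, Dkk3 and Mybphl were thus smaller with Myl7 held constant than with groups alone, and that of Bmp10 was about as large. With Myl4 as the covariate in place of Myl7, the Sham differences of Myl7 (-1.14, SE 0.75, limma adjusted p = 0.697) and Sln (-0.28, adjusted p = 0.934) turned negative, those of Dkk3, Mybphl and Bmp10 were 0.18, 0.34 and 2.64, and none was called, where 0.169% of genes were.

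Under pressure overload the same question was asked between cSirt5-/- TAC and control TAC hearts. The log2 difference was 1.66 for Myl4 (SE 1.01, limma adjusted p = 0.389), 1.63 for Myl7 (SE 1.86, adjusted p = 0.703), 1.12 for Sln (SE 1.58, adjusted p = 0.769) and 0.46 for Mybphl (SE 1.07, adjusted p = 0.875). For Dkk3 it was -0.22 (SE 0.68, limma adjusted p = 0.905) and for Bmp10 0.00 (SE 1.22). None of the 6 was called by limma, edgeR or DESeq2, where these called 3.25%, 3.4% and 5.64% of the genes they tested. At an unadjusted p below 0.05 the numbers were 0, 2 and 1, beside 20.1%, 20.5% and 19.5% of all genes, and for none of the 6 were the groups apart, as they were for 2.95% of all genes.

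The higher values among cSirt5-/- TAC hearts came from the libraries labelled replicates 4 and 5. For Myl4 these were at 1500.5 and 478 normalized counts, against a highest control TAC heart at 306. Without the libraries labelled cSirt5-/- TAC replicates 2 and 4, which kept Sirt5, the log2 difference was 1.16 for Myl4, 0.91 for Myl7, 0.53 for Sln, -0.12 for Dkk3, -0.13 for Mybphl and 0.54 for Bmp10, and none was called by limma, where 1.16% of all genes were. With Myl7 as a covariate it was 0.81 for Myl4 (limma adjusted p = 0.195) and -0.15 for Sln, and none of the other 5 genes was called, where 2.68% of genes were.

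Pressure overload in control mice was read from control TAC against control Sham hearts, which also serve as the baseline of the first comparison. The log2 difference was -0.90 for Myl4 (SE 1.01, limma adjusted p = 0.704), -1.88 for Myl7 (adjusted p = 0.651), -0.81 for Sln (adjusted p = 0.853) and -1.22 for Mybphl (adjusted p = 0.590). The secreted genes had positive differences, 1.41 for Dkk3 (SE 0.68, limma adjusted p = 0.226) and 1.21 for Bmp10 (SE 1.22, adjusted p = 0.664). None of the 6 was called by limma, edgeR or DESeq2, where these called 7.03%, 7.14% and 10.4% of the genes they tested, and at an unadjusted p below 0.05 limma had Dkk3 alone and edgeR and DESeq2 had 0, beside 21.5%, 22.2% and 21.4% of all genes. None of the 6 separated control TAC and control Sham hearts, as 5.25% of all genes did.

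Dkk3 was called once the level of an atrial light chain was part of the model. With Myl7 as a covariate it was higher in control TAC than in control Sham hearts by 1.90 on the log2 scale (SE 0.49, limma adjusted p = 0.0116), where 3.79% of the other genes were called higher, and with Myl4 as a covariate by 1.85 (limma adjusted p = 0.0107), where 3.89% were. In the 4 control TAC hearts with under 10 reads of Myl7, replicates 1, 2, 3 and 6, Dkk3 was 849, 254, 314 and 478 normalized counts. In the 3 such control Sham hearts, replicates 1, 4 and 5, it was 555, 42.4 and 97.3. The groups overlapped here through control Sham replicate 1, and the call was not made without a covariate by limma or on whole reads by edgeR (1.16, adjusted p = 0.289).

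Genes of fibroblasts, which make the collagens of scar, were read in the same comparison. Of 6 fibroblast genes, 3 were called higher in control TAC than in control Sham hearts, where 3.78% of all genes were, namely the collagen genes Col1a1 (0.99, limma adjusted p = 0.0272) and Col1a2 (0.95, adjusted p = 0.0198) and the proteoglycan gene Lum (0.59, adjusted p = 0.00540). Dcn (0.34), Pdgfra (0.26) and Tcf21 (0.19) of the fibroblast list were not called. The matrix gene Postn, from the hypertrophy list, was called higher (2.97, limma adjusted p = 0.000118). The summed fibroblast level was 25776 to 78108 normalized counts in control TAC hearts and 21459 to 35291 in control Sham hearts. It was highest in control TAC replicate 5, the heart with the most Dkk3 of its group. That heart also had the most Myl7 (118), Myl4 (306) and Sln (39.6 normalized counts) of its group. The part of fibroblasts in the level of Dkk3 was not tested.

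Nppa, the gene of the atrial natriuretic peptide, is atrial in the healthy adult and is switched on in loaded ventricle, so it served as a contrast. It was at 33478, 53362 and 100546 normalized counts (lowest, median, highest) in cSirt5-/- TAC hearts, 8340, 21163 and 48369 in cSirt5-/- Sham hearts, 20162, 66571 and 135801 in control TAC hearts, and 1431, 4650 and 18415 in control Sham hearts. It rose in control TAC hearts over control Sham hearts by 3.74 (limma adjusted p = 1.40e-05) and in cSirt5-/- Sham hearts over control Sham hearts by 2.10 (SE 0.50, adjusted p = 0.0328). With animal series in the model the Sham difference of Nppa was 1.08 (limma adjusted p = 0.633) and no longer called, and its r with the mean of the 6 genes was 0.17.

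In cSirt5-/- mice, TAC hearts were set against Sham hearts, a comparison that shares its cSirt5-/- Sham hearts with the first. The log2 difference was -2.43 for Myl4 (SE 1.01, limma adjusted p = 0.333), -4.61 for Myl7 (adjusted p = 0.315), -4.14 for Sln (adjusted p = 0.282), -0.57 for Dkk3 (adjusted p = 0.787) and -1.89 for Bmp10 (adjusted p = 0.569). Mybphl fell by 4.06 on the log2 scale (SE 1.07, limma adjusted p = 0.0788) and was the 1 gene of the 6 called, where 0.672% of all genes were called and 0.421% were called lower. The median of the 6 differences was -3.24, beside -0.01 over all genes, and at an unadjusted p below 0.05 limma had 4 of 6, edgeR 5 of 6 and DESeq2 2 of 5, beside 11.4%, 13% and 11.1% of all genes. None of the 6 separated these groups, as 0.891% of all genes did.

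For Mybphl, 4 of 6 cSirt5-/- TAC hearts, with 0 to 3.57 normalized counts, lay below the lowest cSirt5-/- Sham heart at 4.50, and the libraries labelled cSirt5-/- TAC replicates 4 and 5, at 66.5 and 23.6, lay within the cSirt5-/- Sham range. The fall was also called by edgeR (-4.00 on the log2 scale, adjusted p = 0.0673) and by DESeq2 (-4.00, adjusted p = 0.0465), which called 0.602% and 1.86% of the genes they tested. Without the 2 libraries that kept Sirt5 limma still called it (-4.65, adjusted p = 0.0633), with 0.549% of all genes, and the other 5 were not called, at -2.92 for Myl4, -5.33 for Myl7, -4.73 for Sln, -0.47 for Dkk3 and -1.35 for Bmp10. Mybphl was not called with animal series in the model (-3.50, limma adjusted p = 0.170), with antisense set in the model (-3.77, adjusted p = 0.110), with Myl7 as a covariate (-1.81, adjusted p = 0.299), where 0.276% of genes were called, or without cSirt5-/- Sham replicate 3 (-3.41, adjusted p = 0.205). Leaving out single libraries gave adjusted p values between 0.0291 and 0.231 for Mybphl by limma. In edgeR Bmp10 was called too (-6.43, adjusted p = 0.0273), a value that contains the 3257 counts of cSirt5-/- Sham replicate 3.

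**Figure D3:**
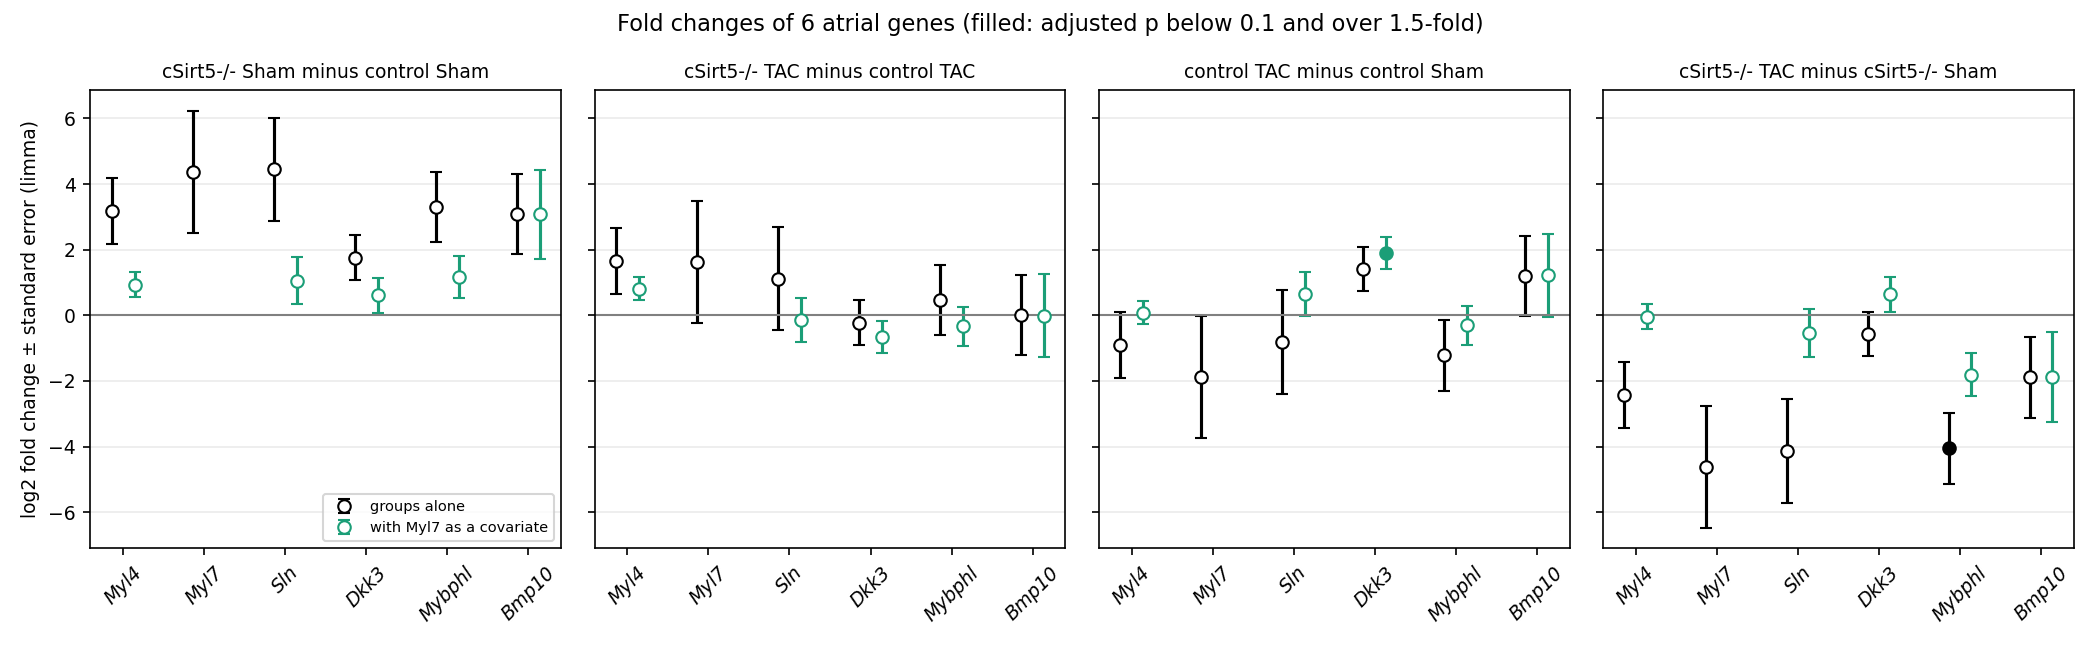
Log2 differences with standard errors for the 6 genes in the 4 pairwise comparisons, from a model with groups alone (black) and from a model that also holds Myl7 constant (green). Filled symbols mark calls, which are Mybphl at -4.06 in cSirt5-/- TAC minus cSirt5-/- Sham hearts with groups alone and Dkk3 at 1.90 in control TAC minus control Sham hearts with Myl7 held constant.

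Whether TAC acted differently in cSirt5-/- and in control mice was tested as an interaction, the TAC difference in cSirt5-/- hearts minus that in control hearts. It was -1.53 for Myl4, -2.73 for Myl7, -3.33 for Sln, -1.98 for Dkk3, -2.84 for Mybphl and -3.10 for Bmp10 on the log2 scale. None of the 6 was called by limma, edgeR or DESeq2, where these called 0.0908%, 0.103% and 1.81% of the genes they tested, and at an unadjusted p below 0.05 limma had Dkk3 alone, edgeR 2 genes and DESeq2 1, beside 9.81%, 11% and 9.64% of all genes. The smallest limma adjusted p was 0.505, for Dkk3. Without both libraries that kept Sirt5 the values were -2.02, -3.45, -3.92, -1.87, -3.42 and -2.56 in the same order, with 0 of 6 called by limma, where 0.0701% of all genes were.

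Other genes known for higher expression in atria than in ventricles were read beside the 6. Of 14 such genes, cSirt5-/- Sham hearts had 2 called higher than control Sham hearts, Nppa and the lipid transfer protein gene Stard10 (0.74), and 1 lower, the potassium channel gene Kcnj3 (-0.66), with a median of 0.12, where 1.48% of all genes were called higher and 0.549% lower. In cSirt5-/- TAC against control TAC hearts, 2 were called higher, Sbk2 (1.90), a kinase gene, and Stard10 (0.86), where 1.93% of all genes were, and without both libraries that kept Sirt5 limma called Sbk2 (1.82, adjusted p = 0.00742) but not Stard10 (0.62, adjusted p = 0.182). In cSirt5-/- TAC against cSirt5-/- Sham hearts, 2 were called lower, Stard10 (-0.84) and the transcription factor gene Tbx5 (-0.82), both with and without those libraries. In control TAC against control Sham hearts, 3 rose, Nppa, Pam (0.93), which amidates peptide hormones, and Myl1 (0.71), and 5 fell, the channel genes Kcnj3 (-1.68) and Kcnj5 (medians of 1252 and 2716 normalized counts in control TAC and control Sham hearts), Tbx5 (-0.73), Stard10 (-0.97) and Sbk2 (-2.80), with a median of -0.33, where 3.78% of all genes rose and 3.26% fell. These genes have signal well outside the hearts with Myl7: Kcnj3 was at 1957 to 2888 normalized counts in all control Sham hearts. Their r with the mean of the 6 genes had a median of 0.27 and a highest value of 0.53, for Sbk2.

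Of 6 ventricular-enriched genes, none was called between the Sham groups (median -0.05). Only Kcnip2, which encodes a subunit of a potassium channel, was called in the other pairs, higher in cSirt5-/- TAC than in control TAC hearts (0.68, and 0.61 without both libraries that kept Sirt5, called in each case by limma) and lower in control TAC than in control Sham hearts (-0.87).

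Markers of tissues that lie next to the atria were read beside the 6 genes. Of 6 fat genes, 1 was called higher in cSirt5-/- Sham than in control Sham hearts, Adipoq, the gene of adiponectin (2.89, limma adjusted p = 0.0938), with a median of 1.78 over the list, where 1.48% of all genes were called higher. Adipoq was at 1.12, 23.0 and 62.5 normalized counts (lowest, median, highest) in cSirt5-/- Sham hearts and 0, 1.57 and 4.27 in control Sham hearts, and at 0 in 8 of 24 hearts. The summed level of the fat list was 907 to 1597 in cSirt5-/- TAC hearts, 729 to 1084 in cSirt5-/- Sham hearts, 717 to 863 in control TAC hearts and 593 to 767 in control Sham hearts, most of it from Cidea, which heart muscle also makes.

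Of 7 genes of the epicardium, the cell layer that covers the heart, 3 were called higher in cSirt5-/- Sham than in control Sham hearts, Msln (2.65), Upk1b (2.37) and Lrrn4 (2.11), with a median of 2.11, again beside 1.48% of all genes. The summed level of the 7 genes was 84.4 to 231 in cSirt5-/- TAC hearts, 152 to 356 in cSirt5-/- Sham hearts, 125 to 262 in control TAC hearts and 86.4 to 161 in control Sham hearts. On average most of it came from Wt1 (mean 138), which was not called between the Sham groups (0.23, limma adjusted p = 0.687). By mean log2 level, the list stood 2.78 above the median of the 24 hearts in cSirt5-/- Sham replicate 1, which had little of the 6 atrial genes. In replicate 3 of that group it stood 3.22 above it. Each of the 3 called genes was at 0 in at least 14 of 24 hearts. The 6 thymus genes summed to 2.36 to 113 in cSirt5-/- Sham hearts and 1.18 to 4.31 in control Sham hearts, and the lung genes to 15.1 to 284 in cSirt5-/- Sham hearts and 2.36 to 12.3 in control Sham hearts. In that comparison 1 thymus gene, Cd3e (2.05), and 1 lung gene, Ager (1.76), were called higher.

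Other cell types and programmes also had genes called between the Sham groups. Of 8 macrophage genes, 3 were called higher in cSirt5-/- Sham than in control Sham hearts, the lysozyme gene Lyz2 (0.88, limma adjusted p = 0.00824) and the complement genes C1qa (0.69) and C1qb (0.73), and the list summed to 10529 to 18498 normalized counts in cSirt5-/- Sham hearts and 6288 to 11275 in control Sham hearts. Of 10 genes of the hypertrophy programme, 4 were called higher, Ankrd1 (1.23, limma adjusted p = 0.00825), Ccn2 (adjusted p = 0.0314), Nppb (1.12) and Gdf15 (1.83), and the list summed to 111252 to 313045 in cSirt5-/- Sham hearts and 69858 to 192715 in control Sham hearts. Each count stands beside 1.48% of all genes called higher. None of 6 fibroblast or 8 general cardiomyocyte genes was called there. With animal series in the model, limma called 26 genes between the Sham groups, against 491 with groups alone. Apart from Nppa, which was not called in that model, the called genes of the marker lists were not read in it. The part of these cell types, of the neighbouring tissues, and of the thymus and lung transcripts in cSirt5-/- Sham replicates 3 and 5, in the levels of the 6 atrial genes was not tested. Without those 2 hearts the Sham difference of Myl7 was 4.84, that of Mybphl 3.45 and that of Bmp10 1.63 on the log2 scale. In that fit 0 of 6 were called by limma, where 93 of all 24239 genes were.

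**Figure D4:**
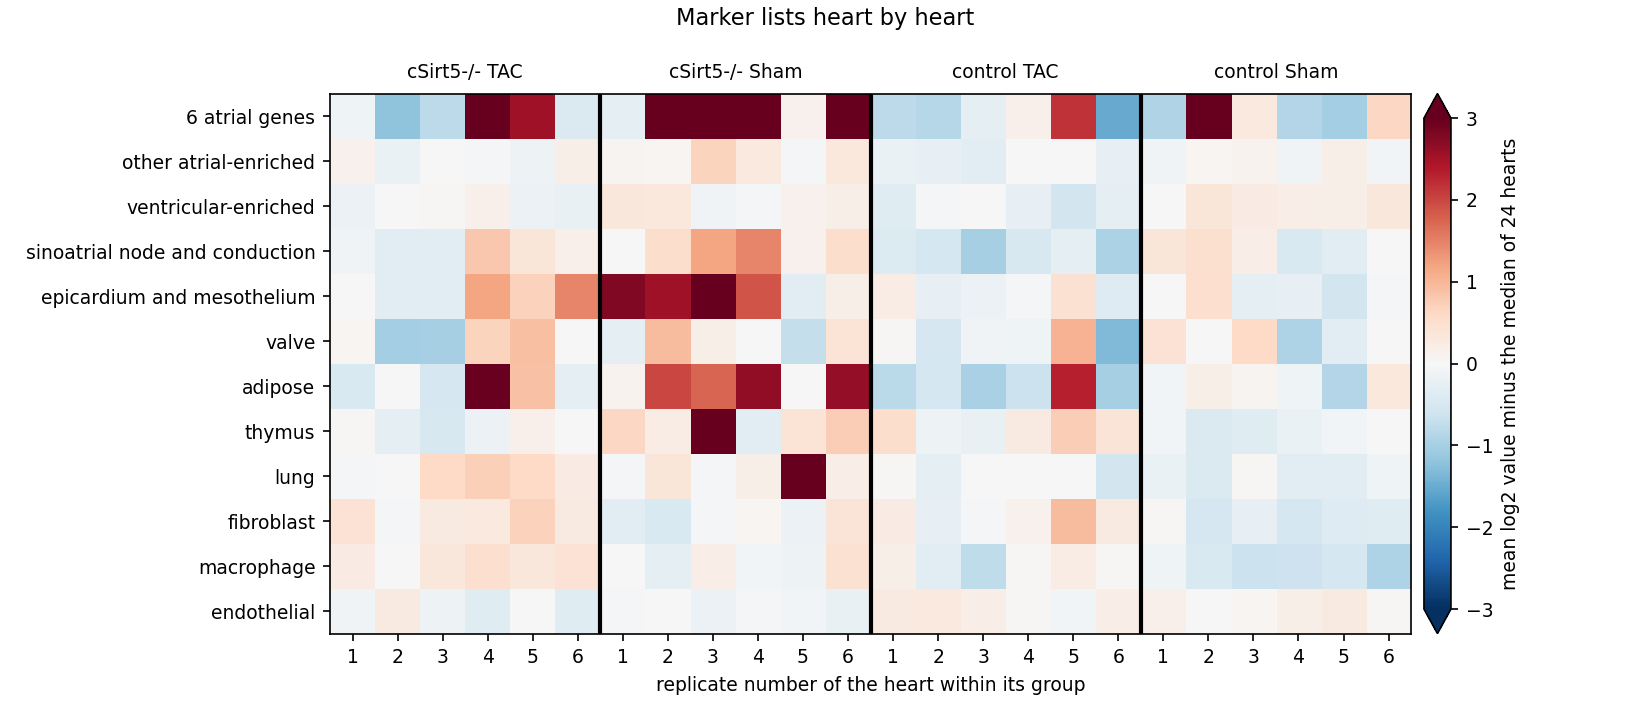
Mean log2 level of 12 marker gene lists (vertical axis) in each of 24 hearts (horizontal axis, ordered by group with cSirt5-/- TAC first and control Sham last), drawn as the difference from the median of the 24 hearts. The 6 atrial genes vary far more between hearts than the ventricular list, the fat list is raised in most of the same hearts, and the thymus and lung lists are raised in cSirt5-/- Sham replicates 3 and 5.

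Outside these lists, the genes whose levels followed the mean of the 6 most closely over the 24 hearts, group means removed, were Scara3 (r = 0.83), Cfd (0.83), Car3 (0.82), Cacna2d2 (0.82), Chad (0.78), Cdo1 (0.76), Col4a6 (0.75), Rab34 (0.75), Slc26a11 (0.73) and Cep131 (0.71). Cfd, the adipocyte protease adipsin, and Car3, a carbonic anhydrase abundant in fat, had medians of 151 and 188 normalized counts in cSirt5-/- Sham hearts and 4.60 and 12.1 in control Sham hearts. Cacna2d2, a calcium channel subunit, was highest in cSirt5-/- Sham replicate 3 at 519. The lowest r values were those of Cwf19l1 (-0.81), Sox7 (-0.73), Fbxo40 (-0.72), Zscan20 (-0.71) and Yae1d1 (-0.71). Without both libraries that kept Sirt5 the r of the 10 ran between 0.70 and 0.85 and that of the 5 between -0.78 and -0.65.

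By share of all reads, the 6 genes made up at most 0.0773%, in cSirt5-/- Sham replicate 3, and at least 0.000314%, in control Sham replicate 4. Among themselves, per kilobase of exon, the order of medians in cSirt5-/- Sham hearts was Myl7 (269), Myl4 (178), Sln (163), Dkk3 (136), Mybphl (32.6) and Bmp10 (4.25), and the ranges of neighbours in this order overlapped. This order depends on the exon lengths used, unions of all annotated exons, at 6380 bases for Myl4 and 2501 for Myl7. In normalized counts the cSirt5-/- Sham median of Myl4 (1133) was above that of Myl7 (672). In control TAC hearts Dkk3 came first (72.1), ahead of Myl4 (6.29), Mybphl (0.941), Bmp10 (0.895), Myl7 (0.366) and Sln (0).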

How the data were processed

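RNA was measured in 24 whole hearts, 6 per group by GEO's labels. The authors trimmed reads with Trim Galore, aligned them to mm39 (GRCm39) with STAR, both named in the submitters' processing notes, and deposited a signal, read counts divided by DESeq2 size factors, for genes with at least 10 reads in total. The read counter is not given in the sources used here. The same tables hold log2 fold changes, test scores (Wald statistics) and p-values of the authors' own comparisons, which were deposited with the counts and not used. All values gave whole reads once scaled (100%, each within 2.51e-08 of a whole number).

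Here log2(normalized count + 1) was fitted by limma 3.58.1 with a mean-variance trend on all 24 libraries, 1 term per group, with Benjamini-Hochberg adjustment over 24239 genes; a call needed adjusted p below 0.1 and more than 1.5-fold. Fold changes are on this scale and understate those of low genes. edgeR 4.0.16 (quasi-likelihood) and DESeq2 1.42.0 on the recovered reads, other pseudocounts, filters, covariates and left-out libraries were alternatives, and scripts were tested on simulated data. The labels do not say more than that hearts were separate, so p-values measure the spread between these samples. Genes named are the 6, Sirt5, Nppa, Myl2, Myl3, Pln, up to 4 called genes per marker list (all called ones where more) and the 10 highest and 5 lowest r among genes with a mean of at least 50. Rag1, Sftpc, Cidea, Wt1, Dcn, Pdgfra, Tcf21 and the other called genes of a list were named after their values were seen. The 6 genes and the lists were chosen with earlier results of these data known. Promoters are from RefSeq (GRCm38.p6). Same-numbered hearts did not deviate together. A result for 1 gene of the conduction list is not reported here.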

Additional observations from a re-analysis of the deposited data

Results flagged for a closer look

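Myl4 in control TAC replicate 5 was 306 normalized counts, far above the other 5 hearts of its group. On the log2(normalized count + 1) scale its gap to the nearest was 0.650 of the group's whole range. This was past the 95% critical value for 6 samples. Sln in the same heart was 39.6 normalized counts, with a gap of 0.733 of the range on the same log2 scale. Of 24 groups tested on that scale (6 genes in 4 groups), these were the only 2 past the limit. Chance alone gives about 1 in 20. The same heart had the highest Myl7 (118) and Dkk3 (1424) of the control TAC group.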

How the results depend on the processing

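Between cSirt5-/- Sham and control Sham hearts, the number of the 6 genes called moved away from 0 in some fits. The number of all genes called stands in brackets, and was 491 of 24239 with groups alone. The count was 2 with a pseudocount of 10 (449), 2 with genes of mean 10 or more (490 of 15037), 3 in edgeR (509) and 3 in DESeq2 (677 of 16248). It was 1 in the libraries of low antisense level (1656) and 2 without both cSirt5-/- TAC libraries that kept Sirt5 (635). With single libraries left out it was 0 to 5. It was 5 without cSirt5-/- Sham replicate 1 (555), 3 without the library labelled cSirt5-/- TAC replicate 4 (646) and 3 without control Sham replicate 2 (511). It was 2 without cSirt5-/- Sham replicate 5 (299), and 1 each without cSirt5-/- Sham replicate 4 (390) and control TAC replicate 5 (562). With the replicate number as a block it was 1, Myl4 (514 of all genes). The replicate numbers do not pair the hearts: over 36 same-numbered pairs, r of the deviations ran between -0.43 and 0.47 (median 0.03), and 10 were over 0.1. The block changed the count of no other comparison. Between control TAC and control Sham hearts, the count was 1 in place of 0 with Myl7 or Myl4 as a covariate (1671 and 1715 of 24238 genes). It was 0 in all 24 fits without a library (1267 to 1956 genes).

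Between cSirt5-/- TAC and cSirt5-/- Sham hearts, where 163 genes were called with groups alone, the 1 call became 2 in edgeR (146 genes). It became 0 with a pseudocount of 10 (134), with only the groups compared (59), and with antisense set or animal series as a covariate (218 and 727). It was also 0 in the high and the low antisense set alone (0 and 20) and with Myl7 or Myl4 as a covariate (67 and 84). With single libraries left out it was 0 to 1, where 33 to 239 genes were called (0 without cSirt5-/- TAC replicates 1, 2, 3 or 6 or cSirt5-/- Sham replicates 2, 3, 4 or 6). Between cSirt5-/- TAC and control TAC hearts and for the interaction, the count was 0 under all 41 and 40 alternatives, where 24 to 1024 and 0 to 268 genes were called. The alternative without the cSirt5-/- Sham libraries with thymus or lung transcripts was chosen after seeing the data. Why calls moved was not tested. With 0 to 3 normalized counts of Myl7, Sln, Mybphl and Bmp10 in many hearts, depth limits any statement on their absence.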

Other observations

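Genes of the sinoatrial node and conduction tissue, which lies partly in the atria, were read from a list of 9. Cpne5 (2.30, limma adjusted p = 0.0337) and Cntn2 (2.12, adjusted p = 0.00402) were called higher in cSirt5-/- TAC than in control TAC hearts, where 1.93% of all genes were. Without both libraries labelled cSirt5-/- TAC that kept Sirt5, limma called Cntn2 (2.02, adjusted p = 0.0283) but not Cpne5 (1.97, adjusted p = 0.149). In control TAC hearts 3 were called lower than in control Sham hearts by limma, Hcn4 (-1.16, adjusted p = 0.00130), Cpne5 (-2.14, adjusted p = 0.0324) and Cntn2 (-1.78, adjusted p = 0.00527), where 3.26% of all genes were. These 2 comparisons share the control TAC hearts. Cntn2, an axonal adhesion molecule that marks the conduction system, was at 265, 343 and 707 normalized counts (lowest, median, highest) in cSirt5-/- TAC hearts, 123, 476 and 694 in cSirt5-/- Sham hearts, 26.1, 90.3 and 261 in control TAC hearts, and 130, 312 and 575 in control Sham hearts. The cSirt5-/- TAC hearts all lay above the highest control TAC heart for Cntn2, while 2.95% of all genes had these groups apart in either direction. Between the Sham groups none of the 9 was called, with a median of 0.75. Over the 24 hearts, group means removed, Cpne5 had r = 0.86 and Cntn2 r = 0.69 with the mean of the 6 atrial genes, and 0.84 and 0.66 over the 22 hearts without those libraries.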
